A study of Mus musculus with 4 samples.

Results

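The unfolded protein and integrated stress response was followed through 37 genes, picked by symbol, with no expression value in the rule, from the 54838 named genes of the expression tables. Of these, 20 form the ATF4 branch (the transcription factor ATF4, its partners, stress effectors and amino acid genes) and 17 form the chaperone branch of the endoplasmic reticulum (ER). The genes and their split into branches were chosen with earlier results of these data known. RNA was sequenced from Hepa1-6 cells, an established mouse hepatocellular carcinoma line, after expression of short hairpin RNAs (shRNA). A pair of control libraries, labelled Setdb1 wild type and shNC, was set against a pair labelled shSet, in which a hairpin lowers the mRNA of Setdb1, a histone H3 lysine 9 methyltransferase. No drug, stress treatment or time point is given for any library, so the values describe cells without a stated ER stressor. The series' design text speaks of subclones of the knockdown cells. The labels do not say whether libraries of a group came from separate cultures or clones. Every p-value below therefore rests only on spread between the sequenced samples, which may be technical. For each gene, that spread was estimated in part from other genes. The number of hairpins used against Setdb1 is not stated in the labels.

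When unfolded proteins fill the ER, the sensors IRE1, PERK and ATF6 change gene expression. IRE1 splices the mRNA of XBP1, and spliced XBP1 and cleaved ATF6 raise chaperones, protein disulfide isomerases and degradation factors of the ER. PERK, like the kinases GCN2, PKR and HRI, phosphorylates the translation factor eIF2, which slows most protein synthesis while favouring translation of ATF4, an activator of amino acid synthesis and transport genes and, with CHOP (Ddit3), of stress effectors. Hepatocytes secrete large amounts of plasma protein and depend on these folding factors.

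The libraries held 19513567 to 19615440 expected counts each, of which mitochondrially encoded genes took 2.29% and 1.67% in controls 1 and 2 and 2.15% and 3.36% in knockdown libraries 1 and 2. Setdb1 stood at 51.5 and 58.5 CPM in the controls and 10.97 and 8.66 CPM in the knockdown libraries (CPM, counts scaled to library size with TMM factors), a log2 fold change of -2.48 (adjusted p = 0.00015). The liver markers Alb, Afp, Trf, Krt8 and Krt18 were abundant, Apoh was at 0 and Ttr and Apoa1 were near 0. The leukocyte marker Cd3e was at 0. The leukocyte markers together summed to 6.36 and 6.05 CPM in the controls and 12.0 and 10.1 CPM in the knockdown libraries. Stellate cell or fibroblast markers summed to 1449 to 1651 CPM, nearly all of it Dcn. Of 12821 genes tested with edgeR's quasi-likelihood test, 5.96% passed a Benjamini-Hochberg adjusted p of 0.05, 4.2% higher and 1.76% lower in the knockdown libraries. The median log2 fold change of all genes tested was -0.005.

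Of the 37 genes, 36 had enough counts to be tested, and Stc2, a secreted glycoprotein induced by ATF4, had 0 counts in all 4 libraries. Only Phgdh, the first enzyme of serine synthesis from glucose, passed the threshold: it fell to 57.3% of the control level (95% interval 45.8% to 71.7%). In such bulk RNA, fewer cells with a transcript and less of it per cell cannot be told apart. Thus 0 of 36 genes rose, against 4.2% of all genes tested, and 1 of 36 fell, against 1.76%, while 35 passed in neither direction. DESeq2 and limma likewise called 0 of the 36 higher. At an unadjusted p under 0.05 stood 9 of 36, against 21.3% of all genes tested: Asns, Psat1, Dnajc3 and Calr on the higher side, and Atf4, Ddit3, Ppp1r15a, Phgdh and Creld2 on the lower side. In CPM, both knockdown libraries lay above both controls for 6 genes (Asns, Psat1, Dnajc3, Calr, Canx and Edem1), against 26.4% of all genes tested. For Asns, Canx and Edem1 this order did not hold in TPM. Both lay below both controls for 6 others (Atf4, Ddit3, Ddit4, Ppp1r15a, Phgdh and Creld2), against 25.2%. The groups overlapped for the other 24 tested members.

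**Figure D1:**
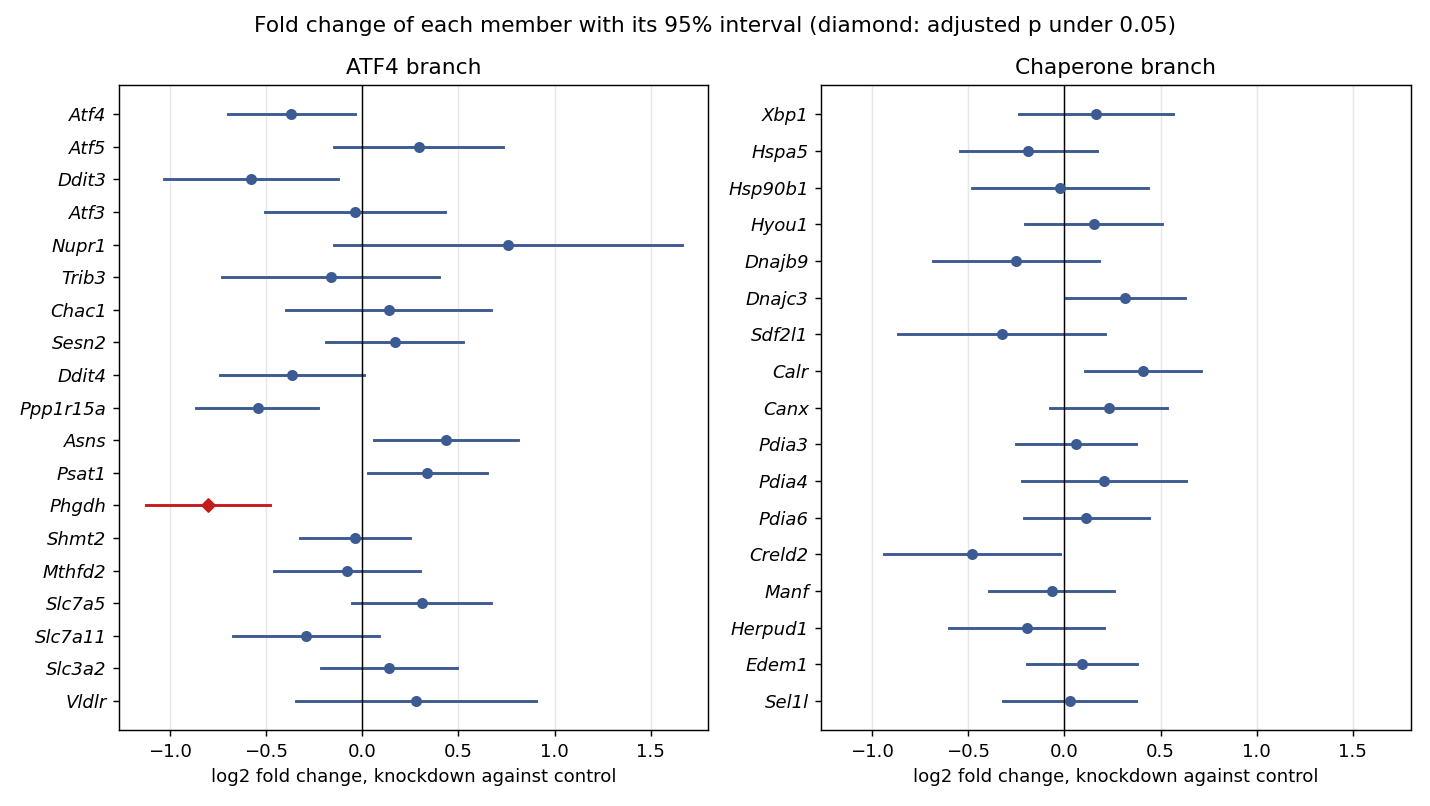
Log2 fold change of knockdown over control for each tested gene of the ATF4 and chaperone branches (x axis, log2 scale), with the 95% interval from the edgeR fit on 2 libraries per group. Phgdh, at -0.80, is the one gene that passed the adjusted threshold, and most intervals include 0.

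For all 17 chaperone-branch genes the 95% interval of the fold change, not adjusted for the number of genes, lay within 2-fold of the control level in both directions, between 52.3% (the lower bound of Creld2) and 164% (the upper bound of Calr). The same held for 16 of the 19 tested ATF4-branch genes. Ddit3, Phgdh and Nupr1 were the exceptions, with bounds of 48.8%, 45.8% and 316% of control on the side away from 1. Among all genes tested 74.8% had an interval within 2-fold, a share that includes genes of low counts and wide intervals.

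Levels of different genes were compared in TPM, a scale that divides by transcript length and has the same sum in every library. By the mean over the 4 libraries, Phgdh led at 1067 TPM. The lectin chaperone calreticulin (Calr) followed at 557 TPM, then the ER Hsp70 BiP (Hspa5) at 513 TPM and calnexin (Canx) at 380.3 TPM. Manf, a small secreted ER stress protein, stood at 358 TPM, about the level of Canx. Atf4 itself stood at 285 TPM, close to Psat1 at 284 TPM and the ER Hsp90 GRP94 (Hsp90b1) at 288 TPM. The stress-inducible factors were far lower, with Ddit3 at 32.7 TPM, Atf3 at 20.1 TPM, Trib3 at 18.8 TPM and Nupr1 at 14.1 TPM. Vldlr, a lipoprotein receptor, was lowest of the detected members at 6.61 TPM.

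**Figure D2:**
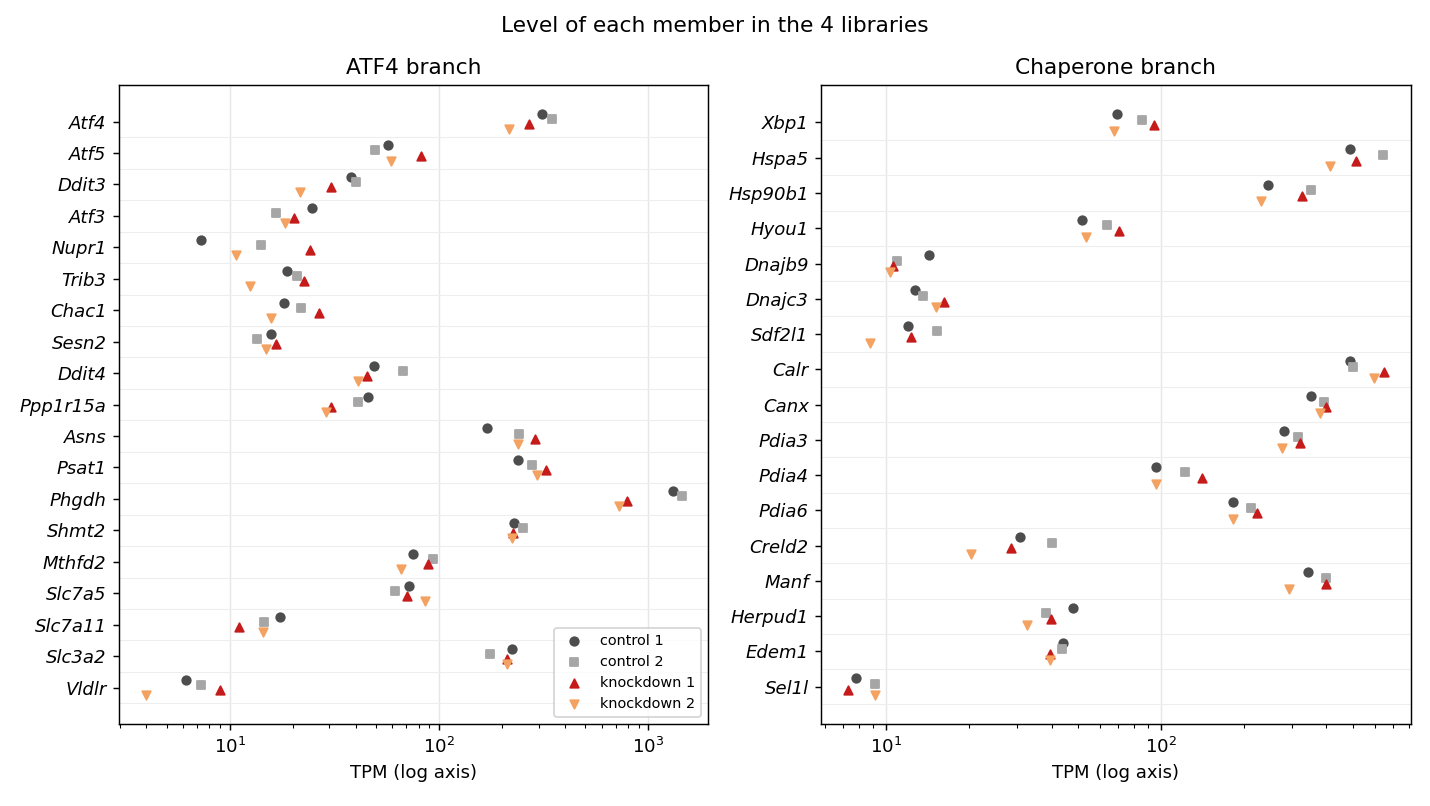
Level of each gene in each of the 4 libraries in TPM (log axis), by branch; each point is 1 library and colour gives the group. Phgdh, Calr and Hspa5 sit highest and Vldlr and Sel1l lowest, and for most genes the points of both groups lie among each other.

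In the ATF4 branch, Atf4 was found at 363 CPM in control 1, 394 CPM in control 2, 324 CPM in knockdown 1 and 262 CPM in knockdown 2. Both knockdown libraries were below both controls, knockdown 2 more so, and the log2 fold change of -0.37 (adjusted p = 0.183) did not pass the test. Because ATF4 is controlled mainly at translation, its mRNA level is not a measure of its protein. Ddit3, which encodes the ATF4 partner CHOP, stood at 18.9 and 18.3 CPM in the controls and 14.4 and 10.5 CPM in the knockdown libraries, with a log2 fold change of -0.58 (adjusted p = 0.133). Its locus overlaps that of Mars on the opposite strand, and the strand setting of the counting is not given in the sources used here. Mars stood at 196 and 203 CPM in the controls and 233 and 216 CPM in the knockdown libraries. Ppp1r15a, which encodes GADD34, the phosphatase subunit that reverses eIF2 phosphorylation, was the nearest to the threshold without passing it. It stood at 57.3 and 54.3 CPM in the controls and 37.3 and 39.1 CPM in the knockdown libraries, or 68.5% of the control level (95% interval 55.0% to 85.4%), with a log2 fold change of -0.55 (adjusted p = 0.0546). The control and knockdown values of Ppp1r15a did not overlap, and DESeq2 gave an adjusted p of 0.0308.

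The remaining regulators showed no separation of the groups except for Ddit4. Atf5, a factor translated in the same manner as ATF4, stood at 67.2 and 59.4 CPM in the controls and 93.6 and 61.6 CPM in the knockdown libraries, so that knockdown 1 alone was above the controls. Atf3, a stress-inducible repressor, stood at 33.9 and 22.3 CPM in the controls and 28.7 and 26.1 CPM in the knockdown libraries, with both knockdown libraries between the controls. Trib3, a pseudokinase that restrains ATF4 and AKT signalling, stood at 26.5 and 28.4 CPM in the controls and 31.7 and 17.3 CPM in the knockdown libraries. Chac1, which degrades glutathione, stood at 20.1 and 23.4 CPM in the controls and 29.9 and 17.8 CPM in the knockdown libraries. Trib3 and Chac1 had the same order of libraries, with knockdown 1 highest and knockdown 2 lowest. Nupr1, a small stress-induced chromatin protein, had the highest fold change of the branch, 0.76 (adjusted p = 0.317), from values of 3.28 and 6.16 CPM in the controls and 11.1 and 4.85 CPM in the knockdown libraries, and control 2 lay above knockdown 2. Ddit4, an inhibitor of mTORC1 signalling, stood at 58.4 and 77.7 CPM in the controls and 55.1 and 50.6 CPM in the knockdown libraries, lower in both knockdown libraries, with a log2 fold change of -0.36 (adjusted p = 0.247). Sesn2, another inhibitor of mTORC1, and Vldlr had log2 fold changes of 0.17 (adjusted p = 0.597) and 0.28 (adjusted p = 0.619) with overlapping libraries.

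Asns, Psat1 and Phgdh make asparagine and serine, and the 3 are usually named together as ATF4 targets. Only Phgdh passed the test here. Phgdh, at chr3:98313170-98339990 on the minus strand (GRCm38), stood at 1680.3 CPM in control 1, 1798 CPM in control 2, 1041 CPM in knockdown 1 and 954 CPM in knockdown 2. The controls differed little from each other, and both knockdown libraries lay far below them: 1739 ± 83.6 CPM (SD, n = 2) in the controls and 998 ± 61.7 CPM (SD, n = 2) in the knockdown libraries. The log2 fold change was -0.80 (SE 0.14, adjusted p = 0.0116), and Phgdh stayed past the threshold without each library in turn. Its expected counts were not whole in any of the 4 libraries, so a part of its reads was divided with other features.

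Psat1, the next enzyme of serine synthesis, stood at 438 and 495 CPM in the controls and 616 and 562 CPM in the knockdown libraries, higher in both knockdown libraries, with a log2 fold change of 0.34 (adjusted p = 0.196). Asns, asparagine synthetase, stood at 228 and 301 CPM in the controls and 389 and 326 CPM in the knockdown libraries. In CPM it was also higher in both, with a log2 fold change of 0.43 (adjusted p = 0.169). In TPM the groups overlapped for Asns, at 171 and 240.05 TPM in the controls and 287 and 238.96 TPM in the knockdown libraries. Neither Psat1 nor Asns passed the test. Without control 2, the log2 fold change of Asns was 0.65 (adjusted p = 0.025), so its call turned on the library left out. The TPM ratio of Psat1 to Phgdh, chosen after the values were seen, went from 0.183 in control 1 and 0.192 in control 2 to 0.412 in knockdown 1 and 0.408 in knockdown 2. The last enzyme of that pathway, Psph, had a log2 fold change of -0.21 (adjusted p = 0.693) and non-whole counts in all libraries. Shmt2 and Mthfd2, which carry serine-derived one-carbon units through mitochondria, were at 356 and 379 CPM in the controls and 356 and 359 CPM in the knockdown libraries for Shmt2 and at 104 and 125 CPM in the controls and 124 and 93.1 CPM in the knockdown libraries for Mthfd2. Their log2 fold changes were -0.04 and -0.08, and the libraries overlapped for both.

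Among the transporters, Slc3a2 encodes the heavy chain that carries the leucine transporter Slc7a5 or the cystine transporter Slc7a11 to the cell surface. Slc7a5 stood at 184 and 147 CPM in the controls and 183 and 226 CPM in the knockdown libraries. Slc7a11 stood at 121 and 97.3 CPM in the controls and 77.7 and 100.1 CPM in the knockdown libraries. Slc3a2 stood at 266 and 199 CPM in the controls and 253 and 258 CPM in the knockdown libraries. In each of the 3, the knockdown libraries overlapped the controls, and the log2 fold changes were 0.31 (adjusted p = 0.312), -0.29 (adjusted p = 0.357) and 0.14 (adjusted p = 0.673).

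ATF4 binds composite sites called CARE (C/EBP-ATF response element). Promoter windows of RefSeq genes on GRCm38.p6, from 250 bases before to 50 bases after the start, were searched on both strands for TGATGNAA, where N is any base. The table held 34 of the 37 members, with Slc7a5, Hyou1 and Manf not among them. A match stood in 7 of the 22 windows of the ATF4 branch (31.8%; Asns, Atf3, Chac1, Nupr1, Slc7a11, Trib3 and Vldlr), in 1 of 15 of the chaperone branch (Herpud1) and in 3.97% of all 32851 windows. The stretches around the matches of Asns, Chac1, Slc7a11 and Nupr1 are shown as examples from the amino acid genes and the stress effectors, none of which passed the test; capitals mark the match on either strand, and each sequence runs 5′ to 3′ on the gene's strand.
Asns (chr6:7693210-7693262, minus strand): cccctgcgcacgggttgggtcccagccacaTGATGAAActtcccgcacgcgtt
Chac1 (chr2:119351019-119351086, plus strand): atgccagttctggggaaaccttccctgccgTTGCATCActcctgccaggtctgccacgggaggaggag
Slc7a11 (chr3:50443623-50443709, minus strand): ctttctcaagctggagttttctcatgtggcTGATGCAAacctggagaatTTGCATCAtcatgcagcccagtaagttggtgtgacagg
Nupr1 (chr7:126625543-126625610, minus strand): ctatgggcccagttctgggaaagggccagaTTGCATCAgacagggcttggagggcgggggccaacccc
The log2 fold changes of the 7 genes with a match ran from -0.29 to 0.76 (median 0.14), and those of the 11 tested genes without one from -0.80 to 0.34 (median -0.08), so the ranges overlapped. Phgdh, Psat1 and Ppp1r15a had no match in these windows.

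In the chaperone branch, no gene passed the test in either direction. Xbp1, the mRNA spliced by IRE1, stood at 96.8 CPM in control 1, 113 CPM in control 2, 138 CPM in knockdown 1 and 97.5 CPM in knockdown 2. Knockdown 1 was highest while knockdown 2 equalled control 1 within 1 CPM, and the log2 fold change was 0.16 (adjusted p = 0.654). The gene-level counts do not separate spliced from unspliced Xbp1. Hspa5 encodes BiP, the Hsp70 that binds unfolded chains and holds the sensors inactive. It stood at 790.1 CPM in control 1, 956 CPM in control 2, 837 CPM in knockdown 1 and 697 CPM in knockdown 2, or 87.9% of the control level (95% interval 68.7% to 112%), with a log2 fold change of -0.19 (adjusted p = 0.549). Knockdown 1 lay between the controls, and knockdown 2 below both. Hsp90b1 stood at 493 and 672 CPM in the controls and 677 and 471 CPM in the knockdown libraries, where the lower values of each group were alike and so were the higher ones. Its log2 fold change was -0.02 (adjusted p = 0.969), and its expected counts were not whole in any library.

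The partners of BiP varied in direction. Dnajc3, a J-protein that also inhibits eIF2 kinases, stood at 49.5 and 51.4 CPM in the controls and 64.5 and 61.2 CPM in the knockdown libraries, higher in both knockdown libraries, with a log2 fold change of 0.32 (adjusted p = 0.22). Dnajb9, a J-protein that restrains IRE1, stood at 25.2 and 18.6 CPM in the controls and 19.0 and 17.8 CPM in the knockdown libraries, where control 1 alone stood high. Sdf2l1, which keeps BiP clients soluble, stood at 8.11 and 10.1 CPM in the controls and 8.47 and 6.09 CPM in the knockdown libraries, with knockdown 2 lowest. Hyou1, the nucleotide exchange factor of BiP, had a log2 fold change of 0.15 (adjusted p = 0.639) and overlapping libraries. Manf and Creld2 are small secreted proteins of the response. Manf stood at 148 and 161 CPM in the controls and 162 and 132 CPM in the knockdown libraries. Creld2 stood at 27.1 and 34.4 CPM in the controls and 25.6 and 18.5 CPM in the knockdown libraries, below both controls in each knockdown library, with -0.48 (adjusted p = 0.211).

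The lectin chaperones, which fold newly made glycoproteins, stood on the higher side. Calr was found at 726 and 700.0 CPM in the controls and 982 and 912 CPM in the knockdown libraries, or 133% of the control level (95% interval 108% to 164%), with a log2 fold change of 0.41 (adjusted p = 0.115). Canx was found at 933 and 873 CPM in the controls and 1079 and 1039 CPM in the knockdown libraries, with 0.23 (adjusted p = 0.371). For both genes each knockdown library was above each control in CPM, but neither passed the test. For Canx this order held in CPM and not in TPM, where the values were 350.2 and 392 TPM in the controls and 399 and 380.0 TPM in the knockdown libraries, with a deposited mean transcript length of 3603 and 3149 bases in the controls and 3577 and 3590.4 bases in the knockdown libraries. The disulfide isomerases Pdia3, Pdia4 and Pdia6, which form and shuffle disulfide bonds, had log2 fold changes of 0.06 (adjusted p = 0.853), 0.21 (adjusted p = 0.584) and 0.11 (adjusted p = 0.709). For these 3, knockdown 1 was the highest library and knockdown 2 lay between the controls.

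Herpud1, Edem1 and Sel1l serve the degradation of misfolded ER proteins. Herpud1, a membrane scaffold of the ubiquitin ligase complex, stood at 63.5 and 47.8 CPM in the controls and 53.7 and 43.4 CPM in the knockdown libraries, with a log2 fold change of -0.20 (adjusted p = 0.583) and knockdown 1 between the controls. Sel1l, the adaptor of the same complex, had a log2 fold change of 0.03 (adjusted p = 0.945). Edem1, which hands misfolded glycoproteins over for degradation, stood at 151 and 142 CPM in the controls and 157 and 154 CPM in the knockdown libraries, with a log2 fold change of 0.09 (adjusted p = 0.737). On the length-corrected scale its order was the opposite, 44.0 and 43.5 TPM in the controls and 39.5 and 39.4 TPM in the knockdown libraries. The deposited mean transcript length of Edem1, which weighs its isoforms by their estimated abundance, was 4556 and 4488 bases in the controls and 5142 and 5026 bases in the knockdown libraries. Thus the groups were apart in each scale for Edem1, in opposite directions, with a small difference in both.

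The chaperone promoters are known for the ER stress response element (ERSE), the letters CCAAT, then 9 bases of any kind, then CCACG, to which NF-Y and ATF6 or XBP1 bind. It was found in 7 of the 15 chaperone windows (46.7%; Calr, Canx, Creld2, Dnajc3, Hsp90b1, Hspa5 and Pdia6), in 0 of 22 windows of the ATF4 branch and in 0.119% of all windows. The shorter ERSE-II, ATTGGNCCACG, was found in Herpud1 and in 0.0365% of all windows. The XBP1 motif TGACGTGG was in no member's window and in 0.676% of all windows. Stretches are shown for Hspa5 as the type case, for Calr and Creld2, which share the element and stood furthest apart in fold change, and for Herpud1; capitals mark the element, which for Calr and Creld2 lies on the other strand.
Hspa5 (chr2:34771995-34772073, plus strand): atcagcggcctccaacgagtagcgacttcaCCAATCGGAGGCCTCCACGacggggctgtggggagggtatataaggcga
Calr (chr8:84847045-84847123, minus strand): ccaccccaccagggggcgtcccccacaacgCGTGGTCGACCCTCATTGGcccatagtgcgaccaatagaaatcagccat
Creld2 (chr15:88819490-88819568, plus strand): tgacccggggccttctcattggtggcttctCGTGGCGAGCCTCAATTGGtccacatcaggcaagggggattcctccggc
Herpud1 (chr8:94386347-94386417, plus strand): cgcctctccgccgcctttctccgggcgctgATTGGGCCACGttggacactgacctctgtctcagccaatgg
Log2 fold changes of the 7 genes with an ERSE ran from -0.48 (Creld2) to 0.41 (Calr), with a median of 0.11. The 8 without it ran from -0.33 to 0.21, with a median of 0.04. Genes with the same element thus stood at both ends of the branch, and the letters alone did not sort the members by direction. A match of letters is not a measurement of binding.

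Taking each library apart, the branches stood higher in knockdown 1 than in knockdown 2. Knockdown 1 exceeded knockdown 2 for 16 of the 17 chaperone genes (94.1%) and for 14 of the 19 tested ATF4-branch genes (73.7%). Among all genes tested the share was 50.1%. The order was not particular to the branches. In the pathway lists described below, the share was 90.0% for tRNA synthetases, 80.0% for amino acid response genes and 73.9% for the translocon. It was lowest for ER-associated degradation (42.1%) and mitochondrial chaperones and proteases (41.7%). The controls also differed from each other. Control 2 exceeded control 1 for 80.0% of amino acid response genes, 70.0% of tRNA synthetases, 64.7% of chaperone genes and 57.9% of ATF4-branch genes. That share was 43.5% for the translocon, 31.6% for ER-associated degradation and 50.6% among all genes tested. On the log2 scale, the median chaperone gene of knockdown 1 stood 0.16 from the mean of the controls, and that of knockdown 2 stood at -0.08. For the ATF4 branch these medians were 0.14 and -0.11. Each knockdown library therefore stood on its own side of the controls. Over all members of a branch, the mean log2 CPM of the chaperone genes was 7.07 in control 1, 7.15 in control 2, 7.25 in knockdown 1 and 6.995 in knockdown 2. That of the tested ATF4-branch genes was 6.35, 6.40, 6.49 and 6.19 in the same order. In both branches the controls lay between the knockdown libraries. The medians of the fitted log2 fold changes were 0.06 and -0.04. They changed sign with the library left out, from -0.09 without knockdown 1 to 0.16 without knockdown 2 for the chaperone genes, and from -0.12 to 0.13 for the ATF4 branch with the same libraries left out.

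**Figure D3:**
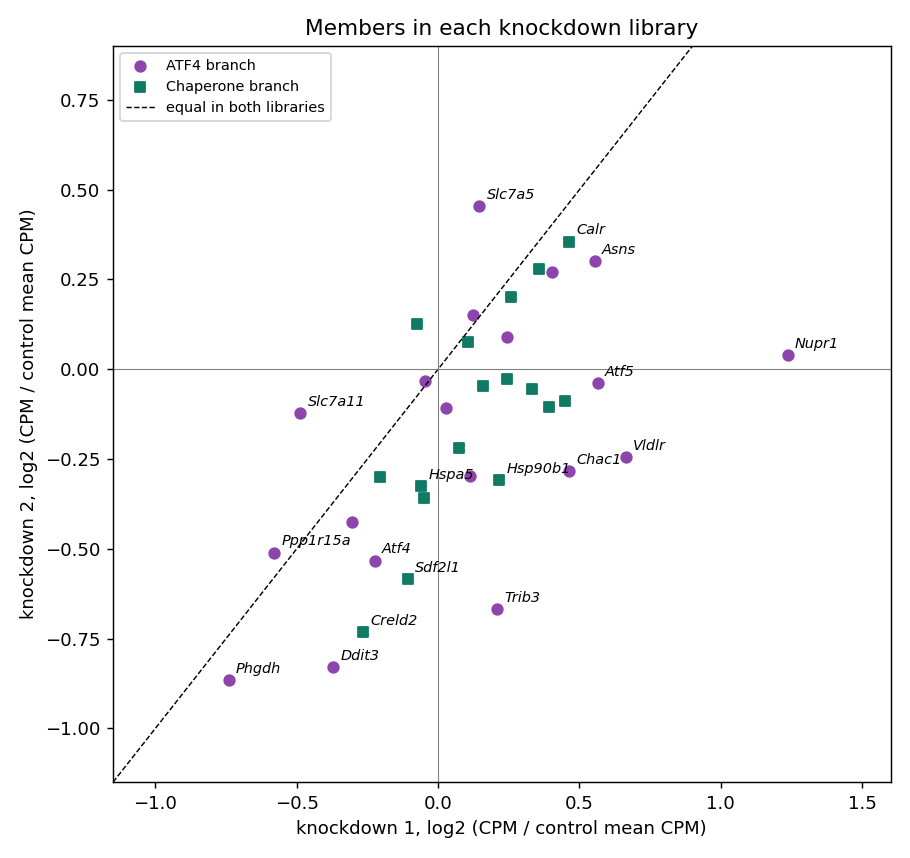
Each member's log2 ratio to the mean of the controls in knockdown 1 (x axis) and in knockdown 2 (y axis), by branch. Most points lie below the diagonal, 16 of 17 for the chaperone branch and 14 of 19 for the ATF4 branch, and Phgdh lies far below 0 in both libraries.

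For each gene, the larger of the 2 within-group differences in log2 CPM was set against the difference between the group means. It was the greater for 12 of 17 chaperone genes (70.6%) and 13 of 19 ATF4-branch genes (68.4%), against 61.7% of all genes tested. Knockdown 2 also had the highest mitochondrially encoded share and knockdown 1 one between the controls, and the part of this in the order of the libraries was not tested. Setdb1 stood lower in knockdown 2 than in knockdown 1.

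The other genes of the pathway were read from 8 lists. Among all genes tested, 4.2% passed on the higher side and 1.76% on the lower side. In lists this short, a single call does not set a list apart. Of the sensors, eIF2 kinases, eIF2 subunits and related factors, 23 of 25 were tested, 0 rose and 0 fell, and the median log2 fold change was -0.05. The 3 ER sensors passed in neither direction, with log2 fold changes of -0.03 (adjusted p = 0.942) for Ern1 (IRE1), -0.05 (adjusted p = 0.905) for Eif2ak3 (PERK) and -0.25 (adjusted p = 0.298) for Atf6. Eif2ak4, which encodes GCN2, the kinase that senses uncharged tRNA, stood at 23.9 and 34.2 CPM in the controls and 21.3 and 17.4 CPM in the knockdown libraries, with -0.58 (adjusted p = 0.142).

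Among other factors of ER-associated degradation, 19 of 20 were tested, 1 rose and 0 fell, against 4.2% and 1.76% of all genes tested. The one that rose was Edem3, a mannosidase that trims misfolded glycoproteins, from 54.6 and 49.6 CPM in the controls to 82.1 and 80.6 CPM in the knockdown libraries, with a log2 fold change of 0.64 (adjusted p = 0.0254). The call was lost in 4 of 13 alternative analyses: with control 2 left out its adjusted p was 0.0602, and limma on log2(TPM + 1) gave 0.147. In this list 17 of 19 fold changes were above 0, with a median of 0.23. Among all genes tested a smaller share was above 0, 6341 of 12821, with a median of -0.005. Control 2 was the lowest library for 12 of the 19 genes, against 3833 of the 12821. The genes of a list share the same 4 libraries and are not independent of each other. Of 20 other ER folding factors 0 rose and 0 fell, with a median of 0.06, and Ero1lb, an oxidase that recharges disulfide isomerases, stood lowest at -1.18 (adjusted p = 0.0609). Of 23 genes of the translocon and signal peptide removal, 0 rose and 0 fell, with a median of 0.12.

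Of 20 cytosolic aminoacyl-tRNA synthetases, many of which are ATF4 targets, 0 rose and 1 fell, against 4.2% and 1.76% of all genes tested. Cars, which charges tRNA with cysteine, went from 228 and 262 CPM in the controls to 177 and 128 CPM in the knockdown libraries, with a log2 fold change of -0.68 (adjusted p = 0.049). That call lay at the threshold and was lost in 9 of 13 alternative analyses. The median of the list was -0.01, and knockdown 1 was above knockdown 2 for 18 of 20 genes.

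Of 22 other amino acid response genes 20 were tested, 2 rose and 2 fell, where 4.2% of all genes tested rose and 1.76% fell. Slc1a4, a transporter of alanine, serine and cysteine, rose from 83.6 and 83.9 CPM in the controls to 146 and 151 CPM in the knockdown libraries, with a log2 fold change of 0.83 (adjusted p = 0.00617). Cbs, which joins serine and homocysteine in the route to cysteine, rose from 2.001 and 2.47 CPM in the controls to 6.48 and 6.29 CPM in the knockdown libraries, with 1.51 (adjusted p = 0.00888). The Cbs call was lost in 3 of 13 alternative analyses, limma on log2(TPM + 1) among them (0.92, adjusted p = 0.0692). Slc38a2, a transporter of neutral amino acids that cells raise when starved of them, fell from 797 and 643 CPM in the controls to 444 and 459 CPM in the knockdown libraries, with -0.67 (adjusted p = 0.0292). Cebpb, a partner of ATF4 at composite sites, fell from 57.9 and 70.3 CPM in the controls to 44.2 and 35.6 CPM in the knockdown libraries, with -0.68 (adjusted p = 0.045), a call lost in 5 of 13 alternative analyses, among them those without control 2 (adjusted p = 0.0965) and without knockdown 2 (adjusted p = 0.167). The 4 calls thus went in both directions, and the median of the list was -0.05. Gdf15, a secreted stress hormone, stood at 17.7 and 29.7 CPM in the controls and 27.3 and 22.02 CPM in the knockdown libraries, and Fgf21 had 0 counts in every library.

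Of 12 mitochondrial chaperones and proteases 0 rose and 0 fell, with a median of -0.10. Of 18 cytosolic heat shock genes 16 were tested, 2 rose and 0 fell, against 4.2% and 1.76% of all genes tested. Of the 2, Hspa1b passed the low-count filter only through the knockdown libraries, where it was high. Its direction was thus tied to its entry into the test, and it adds nothing to the comparison with 4.2%. The median of the heat shock list was -0.05. Cryab, a small heat shock protein, rose from 5.64 and 2.88 CPM in the controls to 17.6 and 14.9 CPM in the knockdown libraries, with 1.93 (adjusted p = 0.00523); its locus overlaps that of Hspb2 on the other strand. Hspa1b, the inducible Hsp70, had 1 count summed over the controls and 42 counts summed over the knockdown libraries. That is 41.9-fold, with an exact 95% interval for counting error of 7.12 to 1695. The fitted log2 fold change of Hspa1b was 5.09, and it ran from 4.23 without control 2 to 7.41 without control 1. On log2(TPM + 1) limma gave 0.58 (adjusted p = 0.0618), and at a minimum of 1 CPM in 2 libraries the gene was not tested. The gene shares most of its sequence with Hspa1a. The other 14 tested heat shock genes passed in neither direction.

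**Figure D4:**
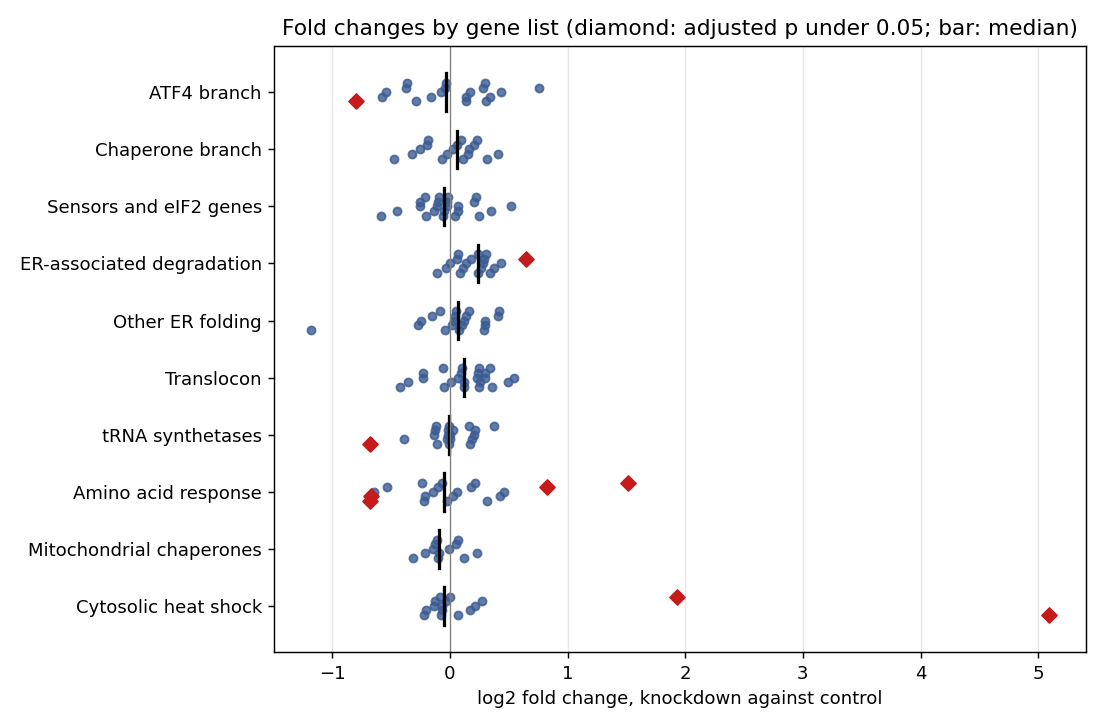
Log2 fold changes of single genes in the 2 branches and the 8 pathway lists (x axis, log2 of knockdown over control); each point is 1 tested gene, and marked points passed the adjusted threshold. Points lie on both sides of 0 in every list, and ER-associated degradation has the highest median, 0.23.

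Beside these values stand the markers of cell types. The summed level of the leukocyte markers was 6.36 and 6.05 CPM in the controls and 12.0 and 10.1 CPM in the knockdown libraries, nearly all of it Cd68. That of 3 endothelial markers was 0.513 and 0.404 CPM in the controls and 2.09 and 1.08 CPM in the knockdown libraries, and Cdh5 and Kdr were at or near 0. Of 4 stellate cell or fibroblast markers, summed at 1449 to 1651 CPM and nearly all Dcn, Lrat was at 0 and Col1a1 rose, with 2.17 (adjusted p = 0.00652). Among 11 liver markers, summed at 4287 to 5189 CPM, Alb and Fgb rose, with 0.94 (adjusted p = 0.00563) and 1.09 (adjusted p = 0.0123), and Hnf4a fell, with -0.60 (adjusted p = 0.0302). Their part in the values above was not tested.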

How the data were processed

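RNA-seq of 2 control and 2 Setdb1 knockdown libraries of Hepa1-6 cells was used. Libraries came from total RNA by a directional kit, per the labels' protocols. The submitters' processing notes name FastQC, STAR, RSEM and DESeq2, with GRCm38 and mm10 as builds, and give neither versions nor roles. For the annotation release, the filters on reads and the strand setting, the answer is the same: not given in the sources used here. The deposited expected counts are RSEM's gene-level estimates per the file headers, and reads matching more than 1 feature are split. The deposited TPM values correct for effective length and have an equal sum in every library. The deposited FPKM column was left out.

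Rounded expected counts entered edgeR 4.0.16 (R 4.3.3) with TMM factors, filterByExpr and the group as the only term. The quasi-likelihood fit used legacy = FALSE. Library sizes covered all 115821 features of each file, while tests covered named genes. Benjamini-Hochberg adjustment ran over the 12821 genes left, at 0.05. Residual degrees of freedom were 2, prior ones 7.52, and the common biological variation was 13.6%. At this depth 1 CPM is 19.5 to 19.6 counts. Exact permutation was not used, since its smallest p with these group sizes is 0.333. Branch and list medians have no test. Ddit3 has a further overlapping entry listed at 0 in every library, and the other entry was used. GENCODE M21 (GRCm38) gave gene positions, and RefSeq (GRCm38.p6) gave promoter sequences. Counts within 0.005 of an integer were taken as whole.

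The members, the split into branches and the pathway lists were chosen with earlier results of these data known. The rule for naming genes gives library values for 14 central members and for members past the threshold, and names up to 4 genes past the threshold per pathway list. Genes named beyond that were chosen for their role or after their values were seen. Alternatives were DESeq2 1.42.0, limma 3.58.1 on log2 TPM, other scaling and filters, a replicate block and leaving out each library. A single gene of the marker lists is not reported here. The scripts were checked on simulated counts, where the changes set were larger than that of any tested member. That check therefore does not tell how often changes of the members' size are detected.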

Additional observations from a re-analysis of the deposited data

How the results depend on the processing

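The counts of calls, the branch medians and the fold changes of the 14 central members and of the genes past the threshold were recomputed under 13 alternatives (12 for Hspa1b, not tested at 1 CPM). DESeq2 changes scaling and test together, and limma on log2 TPM the unit, length correction and test. Phgdh kept its direction in all 13, with log2 fold changes from -0.87 to -0.74, and passed in all except the one without a low-count filter (adjusted p = 0.126). Without that filter 0 members and 0 genes passed, with 3378 genes at an unadjusted p under 0.05, and DESeq2 on the filtered genes called 896. DESeq2 called 2 members lower, Ppp1r15a and Phgdh. Among all genes, limma called 334 on log2(TPM + 1) and 327 on log2(TPM + 0.1), against 764. Leaving out each library in turn gave 740 to 1676 genes, 1 to 3 members called lower (3 without control 1: Ddit4, Phgdh and Creld2) and 0 to 2 called higher (Nupr1 and Asns without control 2, Nupr1 without knockdown 2). A group then holds 1 library, assumed to vary like the others. The branch medians ran from -0.124 to 0.127 for ATF4 and from -0.089 to 0.161 for the chaperones. Log2 fold changes that changed sign ran from -0.31 to 0.294 for Atf3, from -0.388 to 0.02 for Herpud1, from -0.309 to 0.22 for Hsp90b1, from -0.042 to 0.567 for Atf5, from -0.285 to 0.467 for Chac1, from -0.108 to 0.394 for Xbp1 and from -0.67 to 0.211 for Trib3. The cause was not tested.

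With the replicate block, 0 members were called higher and 1 lower, 862 genes passed, and the branch medians were -0.011 and 0.057. Same-numbered libraries had deviations correlated at -0.183, and nothing in the labels pairs them.

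With 2 libraries per group, small differences were not detectable, and some well above the spread between libraries did not pass either. Calr stood at 713 ± 18.0 CPM in the controls and 947 ± 49.9 CPM in the knockdown libraries (SD, n = 2). Its adjusted p in edgeR's quasi-likelihood test was 0.115. A gene called in neither direction is therefore not shown to be unchanged.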
